A study of Homo sapiens with 6 samples.

Results

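The genes described here are the ZFP36 and BTG/TOB mRNA decay factors, namely ZFP36, ZFP36L1, ZFP36L2, BTG1, BTG2, BTG3, TOB1 and TOB2, taken by gene symbol from the authors' deposited table. All 8 symbols were found among the 16953 genes listed there. The RNA came from 6 samples of H1048, a human small cell lung cancer line labelled wild type. In 3 samples the cells were exposed for 48 h to ISP-I (isovalerylspiramycin I, a component of a macrolide antibiotic) at 10 µM, and in 3 samples to the solvent DMSO. All samples are of this single cell line. The design text describes 3 biological replicates per group. The authors' table compares a set of libraries D to F with a set of libraries A to C, and no label states which of these sets received ISP-I, so every difference below is one of libraries D to F relative to libraries A to C. The values per library carry no sample name and were not used, which leaves the level of each gene in each sample, and its spread between samples, outside this account. Per gene, the table gives the authors' log2 fold change with its raw and adjusted p-values, and no standard error. Of the tuft cell markers that define this line, POU2F3 (log2 fold change -1.71), AVIL, SOX9 and KIT were lower and GFI1B was higher among 8 listed, while 3 of 5 fibroblast markers were lower, 1 of 4 leukocyte markers was higher and none of 3 measured endothelial markers was called; the part of these differences in the results below was not tested.

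Both protein families shorten the life of mRNAs by bringing the CCR4-NOT deadenylase to them. ZFP36 (tristetraprolin, TTP) and its paralogs ZFP36L1 and ZFP36L2 are zinc finger proteins that bind AU-rich elements in the 3′ untranslated region (UTR) of short-lived mRNAs, such as those of cytokines and immediate early genes, and dock CCR4-NOT there. BTG and TOB proteins do not read a sequence element themselves; they bind the CNOT7 and CNOT8 nucleases of that complex, TOB proteins also bind the cytoplasmic poly(A) binding protein, and the family is known for restraining cell proliferation. In many cell types ZFP36 and BTG2 are themselves induced rapidly by growth factors and stress.

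ZFP36 proteins act on AU-rich elements, and their own mRNAs can hold such elements. To show this, the 3′ UTRs of the members were searched in GENCODE release 29 (GRCh38) for the heptamer TATTTAT and for the longer nonamer TTATTTATT that contains it, on the sense strand, in the principal transcript of each gene. The stretches printed here are the 30-base windows with the most matched bases, written as DNA, 5′ to 3′, with the matches in capitals; the first 3 hold the nonamer and the BTG2 window holds the heptamer alone.
ZFP36: cttTATTTATgacgactTTATTTATTctaa
ZFP36L1: aaactgttggaTTATTTATTttagaaattc
ZFP36L2: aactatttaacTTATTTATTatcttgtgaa
BTG2: taaatgaagagcTATTTATatatattattt
They lie in the 3′ UTR at chr19:39409189-39409218 (plus strand), chr14:68788077-68788106 (minus strand), chr2:43223448-43223477 (minus strand) and chr1:203307527-203307556 (plus strand).

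Each of the 3 ZFP36 family mRNAs held 3 heptamers, 1 of them within a nonamer, whereas none of the BTG and TOB mRNAs held the nonamer. BTG3 held 2 heptamers, BTG1, BTG2 and TOB2 held 1 each, and TOB1 held 0. Over 16450 measured genes for which the search obtained a 3′ UTR, 7.98% held at least 1 nonamer, 30.9% at least 1 heptamer and 5.65% at least 3 heptamers. The ZFP36 matches were packed closest, with centres 496, 511 and 536 bases after the stop codon in a 3′ UTR of 713 bases. In ZFP36L1 the centres lay at 1183, 1225 and 1442 of 1871 bases, and in ZFP36L2 at 857, 905 and 1093 of 1917 bases. A match describes letters and is not evidence of binding.

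**Figure D1:**
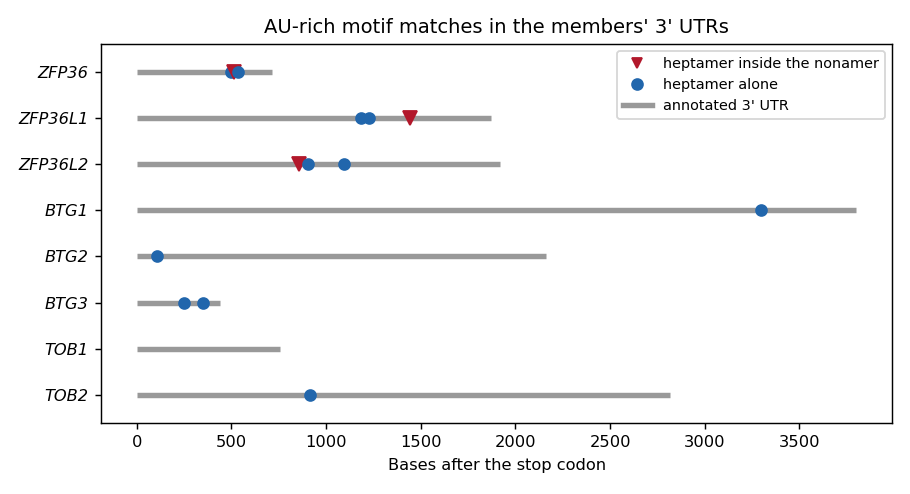
Positions of the AU-rich heptamer in the annotated 3′ UTR of each member, in bases after the stop codon; grey bars show the length of the 3′ UTR, triangles heptamers inside the nonamer and circles heptamers alone. The 3 ZFP36 family genes carry 3 heptamers each with 1 inside a nonamer, and TOB1 carries 0.

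In libraries D to F, 7 of the 8 genes were higher and 0 were lower by the adjusted p-values of the authors' deposited table (threshold 0.05); TOB2 was the gene not called. Across all 15976 genes for which one is listed, 29.7% were higher and 27.9% lower by the same rule, so a call in either direction was common in this comparison (57.6%). The median log2 fold change was 0.99 over the 8 genes and 0.05 over all genes with an adjusted p. At least 2-fold, 4 of the 8 were higher (ZFP36, ZFP36L2, BTG1 and BTG3) and 0 lower, against 12.8% and 11.3% of all genes. The genes were chosen with earlier results of these data known, so these counts describe them and carry no test of the group.

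ZFP36, which encodes TTP, differed most among the 8. It was 5.29-fold higher in libraries D to F, a log2 fold change of 2.40 (adjusted p = 5.01e-60 by the authors' deposited table). The gene has 2 exons and lies on chromosome 19, 39406813 to 39409412, plus strand. A log2 fold change below that of ZFP36 was listed for 93.4% of genes with an adjusted p, and 276 genes had a smaller p. If the authors' p-values are 2-sided Wald p-values, as DESeq2 gives by default, the standard error of this log2 fold change is 0.14 and its 95% interval runs from 2.12 to 2.69; the same condition holds for each standard error and interval below.

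The paralogs moved in the same direction by less. ZFP36L2 (chromosome 2, 43222402 to 43226609, minus strand), known in lymphoid and blood progenitor cells, was 2.39-fold higher, a log2 fold change of 1.25 (adjusted p = 2.83e-37 by the authors' deposited table; standard error 0.097, interval 1.07 to 1.44). ZFP36L1 (chromosome 14, 68787660 to 68796253, minus strand), a paralog widely expressed in epithelial cells, was 1.68-fold higher, a log2 fold change of 0.75 (adjusted p = 6.67e-14; standard error 0.097, interval 0.56 to 0.94). The 3 intervals of the ZFP36 family did not overlap one another. The order ZFP36, ZFP36L2, ZFP36L1 is one of relative change; which of the 3 mRNAs was the most abundant is not given here.

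All 3 BTG genes were higher in libraries D to F, within a narrow range. BTG1, an antiproliferative gene often mutated in B cell lymphoma, was 2.39-fold higher (log2 fold change 1.26, adjusted p = 4.51e-24 by the authors' deposited table; standard error 0.12, interval 1.02 to 1.49); it lies on chromosome 12, 92140278 to 92145897, minus strand. BTG3 (chromosome 21, 17593653 to 17612947, minus strand) had a log2 fold change of 1.07 (adjusted p = 1.93e-11; standard error 0.15, interval 0.77 to 1.38). BTG2, a known target of p53 and an early response gene on chromosome 1 (203305491 to 203309602, plus strand), had a log2 fold change of 0.91 (adjusted p = 2.24e-09; standard error 0.15, interval 0.62 to 1.20). The intervals of the 3 genes overlapped, so their order is not resolved. BTG2 is a rapid response gene like ZFP36, yet its difference was 1.88-fold where that of ZFP36 was 5.29-fold, and their intervals did not overlap. The germline paralog BTG4 had no adjusted p, and its listed fold change was shared to 3 decimals by 377 genes without an adjusted p, so it carries no information on BTG4.

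Of the TOB pair, TOB1 was higher like the other 6 called genes and TOB2 was not called. TOB1, which represses proliferation and links CCR4-NOT to the poly(A) binding protein, was 1.60-fold higher (log2 fold change 0.67, adjusted p = 3.38e-06 by the authors' deposited table; standard error 0.14, interval 0.40 to 0.95); it lies on chromosome 17, 50862223 to 50867978, minus strand. TOB2, its close paralog on chromosome 22 (41433492 to 41447023, minus strand), had a log2 fold change of -0.24 and was not called (unadjusted p = 0.0296, adjusted p = 0.0513; standard error 0.11, interval -0.45 to -0.02). The interval of TOB2 lay below those of the other 7 genes. A difference between the paralogs was not tested.

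**Figure D2:**
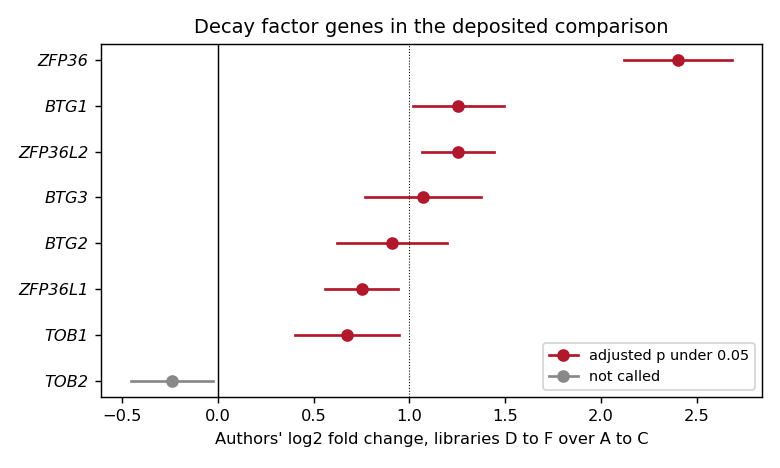
The authors' log2 fold change of each gene, libraries D to F over libraries A to C (x axis, log2), with bars for the 95% interval that holds if the authors' p-values are 2-sided Wald p-values; the dotted line marks 2-fold. ZFP36 stands alone at 2.40, the next 6 genes lie between 0.67 and 1.26, and TOB2 is at -0.24.

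Ordered by log2 fold change, the genes ran ZFP36, BTG1, ZFP36L2, BTG3, BTG2, ZFP36L1, TOB1 and TOB2. Neighbours in this order had overlapping intervals except at the ends, where ZFP36 stood 1.15 above BTG1 and TOB1 stood 0.91 above TOB2 on the log2 scale. BTG1 and ZFP36L2 could not be ordered, at 2.39-fold each. In the distribution of all genes with an adjusted p, 73.0% had a lower log2 fold change than TOB1, 79.1% than BTG2 and 84.9% than BTG1, while 37.7% had a lower one than TOB2. Large changes were frequent in this comparison, and 1056 genes had a larger log2 fold change than ZFP36.

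**Figure D3:**
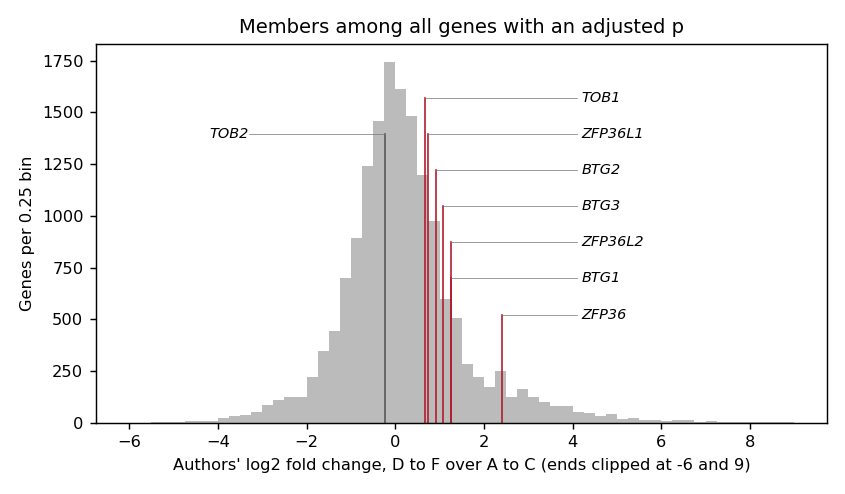
Histogram of the authors' log2 fold changes of the 15976 genes with an adjusted p (x axis, log2; y axis, genes per bin), with vertical lines at the 8 members. The lines of 7 members lie right of the centre of the distribution, with ZFP36 farthest out, and that of TOB2 lies just left of 0.

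Annotation limits some of these values. In GENCODE 29, exons of BTG1 overlap AC025164.1 on the opposite strand and LINC01619 on the same strand, those of BTG3 overlap BTG3-AS1 and those of TOB1 overlap TOB1-AS1, both on the opposite strand. Whether counting used strand is not stated, so it is not known whether reads of the opposite-strand partners were kept apart from those of the members. Strand could not separate LINC01619 from BTG1. Reads in the shared exons may have been mixed or left uncounted. BTG1, BTG3 and TOB2 also have annotated processed pseudogenes, and reads that match both the pseudogene and the parent gene may be split or left uncounted. No exon overlap with another gene and no pseudogene of that naming was found for ZFP36, ZFP36L1, ZFP36L2 or BTG2.

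RefSeq promoters (GRCh38.p14, 250 bases before to 50 bases after the start) were held for 7 of the 8 genes, with 9 promoters in all; ZFP36L2 had none in the table. They were searched on both strands for motifs of factors that act in growth and stress signalling. The EGR motif GCGGGGGCG was found in BTG2 and in 5.07% of all 35116 promoters. The full cyclic AMP response element TGACGTCA was found in ZFP36L1 and in 1.85% of all promoters, and its core TGACG, which the full element contains, in BTG1, BTG2, TOB1 and ZFP36L1 and in 24.6% of all. A loose NF-kB pattern, with any base allowed at its middle positions, was found in ZFP36 (6.52% of all). The NRF2 pattern TGANNNNGC, also open in its middle, was found in ZFP36, ZFP36L1 and TOB2 (41.8% of all). Stricter forms of these 2 patterns were not searched, so the ZFP36 match is not shown to be a consensus NF-kB site. No member's window held the AP-1 motif TGANTCA (7.71% of all), the EGR motif GCGTGGGCG (0.795%), the ATF4 motif TGATGNAAT (0.991%), the E box CACGTG (7.26%) or the serum response element (1.29%). These 3 stretches show the rarer matches in capitals, 5′ to 3′ on the strand of the gene. The ZFP36 match is to the reverse complement of the loose NF-kB pattern.
BTG2: ggctggggtgGCGGGGGCGgggaaaagcg
ZFP36L1: gtggaatgagTGACGTCAcagccgcgct
ZFP36: cgcgcgtccgGGAAGCGCCCctcctgcccc
They lie at chr1:203305358-203305386 (plus strand), chr14:68793451-68793478 (minus strand) and chr19:39406743-39406772 (plus strand). The BTG2 and ZFP36 stretches are upstream of the annotated gene, and the ZFP36L1 stretch, before a downstream start, overlaps an exon of a longer transcript. These matches are descriptions of the letters and not of binding.

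The subunits of the deadenylase that both families recruit were divided. Of 12 measured CCR4-NOT subunits, 3 were higher (25%) and 5 lower (41.7%) in libraries D to F at the same threshold, beside 29.7% and 27.9% of all genes with an adjusted p, with a median log2 fold change of 0.07. The shares of the next 5 lists are to be read against the same values over all genes. The deadenylases CNOT7 (-0.40) and CNOT8 (-0.67), which BTG and TOB proteins bind, were both lower. Of the second pair of nucleases, CNOT6 was lower (-0.81) and CNOT6L higher (0.41). The scaffold CNOT1, to which ZFP36 proteins dock, was lower (-0.80, adjusted p = 0.00558), while the ubiquitin ligase CNOT4 (1.15) and CNOT10 (1.06) were higher. Subunits at least 2-fold different numbered 2 higher and 0 lower of the 12, beside 12.8% and 11.3% of all genes with an adjusted p.

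Other partners of BTG and TOB proteins differed by small amounts. Of 10 listed, CNOT7 and CNOT8 included, 3 were higher (30%) and 5 lower (50%), with a median of -0.06. The poly(A) binding protein gene PABPC1 was lower by little (-0.19, adjusted p = 0.0258 by the authors' deposited table), the methyltransferase PRMT1, which binds BTG1 and BTG2, was at 0.30, and the receptor tyrosine kinase ERBB2 was at -1.39, the only one of them past 2-fold. SMAD4 (0.24) and SMAD5 (0.43), mediators of TGF-beta and BMP signals, were higher, while SMAD1 (0.17) was not called. CAPRIN2 (-0.40) was lower and HOXB9 (0.07) was not called.

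The other deadenylases and tail-binding proteins were divided. PAN2, the nuclease of the PAN2-PAN3 complex that trims long tails, was 2.25-fold higher and its partner PAN3 was at 0.39, both called. Among poly(A) binding proteins, the nuclear PABPN1 (-1.28) and PABPC1L (-1.38) were lower. Over the 9 genes of this list with an adjusted p, 2 were higher (22.2%) and 5 lower (55.6%), with a median of -0.19. PARN, a further poly(A) nuclease, had no adjusted p and carried the fold change shared by 377 genes.

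Decapping and 5′ to 3′ decay genes, which act after the tail is lost, were 4 higher (20%) and 5 lower (25%) of 20, with a median of 0.00. EDC3 (1.14), DCP1A (0.59) and LSM3 (0.44), which assist decapping, were higher. The decapping enzyme DCP2 (-0.80), GIGYF1 (-1.17), a translational repressor, and LSM14B (-0.55) were lower. The exonuclease XRN1 was not called (-0.02, adjusted p = 0.914 by the authors' deposited table).

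Other RNA-binding regulators of mRNA decay and translation were 8 higher (38.1%) and 5 lower (23.8%) of 21, with a median of 0.00. The cytoplasmic polyadenylation element binding protein CPEB2 was 6.46-fold higher (adjusted p = 1.63e-72 by the authors' deposited table), where ZFP36 was 5.29-fold higher; the difference between them was not tested. ZC3H12C, a paralog of the endonuclease Regnase-1, was at 1.91 and NANOS1 at 1.04, whereas ZC3H12A, which encodes Regnase-1 itself, was lower (-0.51, adjusted p = 0.0355). TIA1 (-0.57) and HNRNPD, also known as AUF1 (-0.37), which bind AU-rich elements as ZFP36 does, were lower. Of others on the list that bind such elements, named after their values were seen, ELAVL1 (-0.34) was lower. KHSRP (-0.26) and TIAL1 (0.05) among these were not called.

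TTP is regulated after translation by p38 MAP kinase and its target MK2, whose phosphorylation recruits 14-3-3 proteins and blocks CCR4-NOT, and by protein phosphatase 2A, which reverses this. Of 17 such genes 6 were higher (35.3%) and 8 lower (47.1%), with a median of -0.26. The p38 phosphatase DUSP1 was 4.85-fold higher, close in size to ZFP36. The p38 activators were split, with MAP2K3 at 1.49 and MAP2K6 at -2.36. MAPKAPK2, which encodes MK2 and was picked for its role after its value was seen, was not called (0.10, adjusted p = 0.408 by the authors' deposited table). The p38 genes MAPK14 (-0.47) and MAPK11 (-0.56) and the related kinase gene MAPKAPK3 (-0.43), also named after their values were seen, were lower. The subunits of protein phosphatase 2A were split: the scaffold PPP2R1A was lower (-0.78), while the catalytic subunits PPP2CA (0.99) and PPP2CB (0.59), named for their role after their values were seen, were higher. Of the 14-3-3 genes YWHAZ was higher (1.07) and YWHAB lower (-0.67). Of the other 14-3-3 genes, named after their values were seen, SFN (0.96) was higher, and YWHAQ (-0.63) and YWHAG (-0.26) were lower. YWHAE and YWHAH among these were not called.

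The mRNAs reported as targets of ZFP36 proteins were mostly higher in the same libraries as ZFP36 itself. Of 32 with an adjusted p, 21 were higher (65.6%) and 4 lower (12.5%), beside 29.7% and 27.9% of all genes, with a median log2 fold change of 1.33. This list was drawn from general knowledge with earlier results of these data known, and it holds many cytokine and immediate early genes, so its count describes those genes and is not a test of ZFP36 activity. The immediate early gene FOS (log2 fold change 7.57) and the EGF receptor ligand AREG (7.25) were among those with large increases. The lower members were DDIT4 (-2.56), PLAUR (-1.54), NOTCH1 (-1.09) and, named after its value was seen, BCL2 (-1.01). IER3 and CXCL1 carried the fold change shared by 377 genes and had no adjusted p.

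The listed targets differed in whether their 3′ UTR held the nonamer. Of 34 for which the search obtained a 3′ UTR, 19 held it (55.9%), against 7.98% of all genes searched. MYC, named after its value was seen, was higher (0.71) but is not among the 34, since no 3′ UTR was obtained for it. These counts rest on the principal transcript of each gene. The list was made up of mRNAs reported to hold AU-rich elements, so a larger share follows from that choice and is not a finding. With the nonamer and an adjusted p, 10 of 18 were higher and 3 lower, with a median of 1.14; without it, 10 of 13 were higher and 1 lower, with a median of 2.50. The difference between these subsets was not tested.

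**Figure D4:**
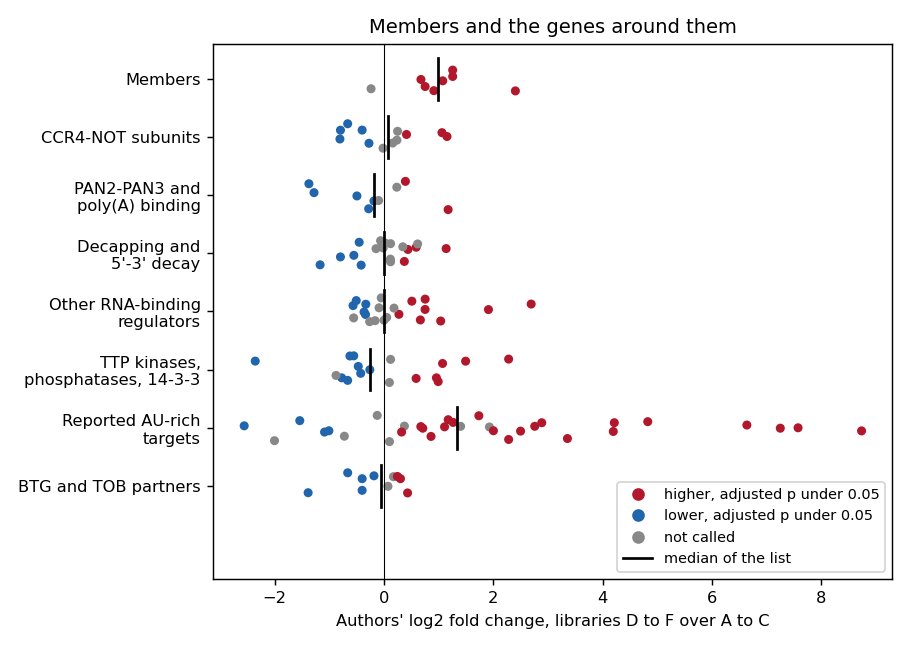
The authors' log2 fold changes (x axis, log2, libraries D to F over A to C) of the 8 members and of 7 gene lists around them; each point is a gene with an adjusted p, coloured by its call, and black bars are medians. The members' median is 0.99 and that of the reported AU-rich targets 1.33, while the remaining lists shown have medians between -0.26 and 0.07.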

How the data were processed

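The measurements were RNA sequencing of 6 H1048 samples. Per the submitters' processing notes the tools were Trimmomatic, STAR, HTSeq and DESeq2 with build hg38; no version, gene annotation or strand setting is stated. The authors deposited, per the file headers, 1 log2 fold change per gene (libraries D to F over A to C) with its p-value and adjusted p-value; shrinkage is not stated. Library letters appear in no sample label, so 36 columns of values per library were left out, no count model was run, and depth per sample is not given. Since the samples' values were not used, the p-values rest on the authors' own model of 3 libraries a set.

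The adjusted p-values matched a Benjamini-Hochberg adjustment over 15976 genes; the other 977, listed at exactly 1, were treated as having none. Genes were called at an adjusted p under 0.05. Standard errors were computed as the log2 fold change divided by the normal quantile of p, which requires 2-sided Wald p-values. The members and lists were chosen with earlier results of these data known; the searches of 3′ UTRs were added later. Named genes were the 8 members, any gene of lists of up to 10, the 3 largest called changes per direction of longer lists, and catalytic decay enzymes; a gene that this rule takes is not reported here. Some genes outside this rule were also named after their values were seen, as marked where they appear. IER3 and CXCL1, also outside it, were named for their shared fold change. Of 128 listed genes 122 were measured. Calculations were tested on simulated data (Python 3.11.15, pandas 2.3.3, numpy 2.4.6, scipy 1.17.1).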

Additional observations from a re-analysis of the deposited data

How the results depend on the processing

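The count of members higher was 7 at an adjusted p under 0.01, with Benjamini-Hochberg or Bonferroni adjustment over every gene of the table, and with directions taken after subtracting the median of all genes (0.06 on the log2 scale); it was 4 when at least 2-fold was also required, which removes smaller changes by construction. The count of members lower was 0 throughout, and no member's fold change changed sign on centring. Shares of all genes were taken at an adjusted p under 0.05 only, with and without the 2-fold requirement. The member and list counts at other settings therefore have no such share beside them. An unchanged count there does not set these genes apart from others. With at least 2-fold required, CCR4-NOT subunits lower fell to 0; PAN2-PAN3 and poly(A) binding genes were 1 higher and 2 lower; decapping genes 1 and 1; other RNA-binding regulators 3 and 0; TTP kinases, phosphatases and 14-3-3 genes 3 and 1; and BTG and TOB partners 0 and 1. Over all genes with an adjusted p, 12.8% were higher and 11.3% lower with at least 2-fold required. At an adjusted p under 0.01, 3 PAN2-PAN3 and poly(A) binding genes and 3 BTG and TOB partners were lower, where 5 and 5 were at 0.05. All other list counts stayed within 1.5 times. Leaving out each replicate was not run, and neither was a count model, because columns whose names match no sample label were left out. No paired analysis was possible because the columns carry no replicate number of a sample. How much of a fold change depends on low counts cannot be read here, since levels were not used.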

Other observations

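Genes with the AU-rich nonamer were also looked at across the whole table, a choice made after the members' values were seen. Of 1256 genes with at least 1 TTATTTATT in the 3′ UTR and an adjusted p, 34.0% were higher and 29.7% lower in libraries D to F, beside 29.7% higher and 28.1% lower of 14302 genes without it. Among 103 genes with 3 or more nonamers, 28.2% were higher and 28.2% lower. Genes with the nonamer have long 3′ UTRs (median 2842.5 bases, against 924 without it), and the shares moved with that length. In 3′ UTRs under 1000 bases 37.6% of 186 genes with the nonamer were higher and 20.4% lower, beside 29.6% and 24.4% of 7499 without it. From 1000 to under 2000 bases 39.2% of 250 genes with it were higher and 22.8% lower, beside 29.5% and 30.04% of 3146 without it, and from 2000 to under 4000 bases 36.2% of 384 were higher and 27.6% lower, beside 31.0% and 32.7% of 2497. At 4000 bases and above 27.5% of 436 with it were higher and 39.4% lower, beside 27.8% and 36.5% of 1160. With the longest 3′ UTR of each gene in place of the principal transcript, 1364 genes held the nonamer. Of these 454 were higher (33.3%) and 424 lower (31.1%), beside 29.7% and 27.9% of 14194 genes without it. The counts with the principal transcript were 427 and 373 of 1256. No test was run on these shares, and they are given as a description.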
